A study of Homo sapiens with 6 samples.

Results

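The complement system is a cascade of blood and tissue proteins that marks surfaces for clearance and can perforate membranes. In cardiomyocytes grown in 2 media, 9 complement genes were followed, of 38557 gene rows counted. They were found by symbol. They are the alternative pathway proteases CFB and CFD, the central component C3, the paired classical pathway proteases C1R and C1S, and the regulators CFI, SERPING1, CD55 and CD59. All 9 had enough counts to enter the test over 16107 genes. CFI, CFB and C3 met the minimum count only through the RPMI plus B27 group, where they were higher, so their direction is tied to that entry. The set was chosen by the measured difference in CFI counts between the media, so the values of CFI are a description without a test.

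The cardiomyocytes were differentiated from WTC11, a widely used line of human pluripotent stem cells reprogrammed from skin fibroblasts, and are labelled wild type. No sort of the cells is named in the labels. The 3 libraries of one group came from RPMI plus B27, a serum-free supplement, and the 3 of the other from DMEM plus fatty acids. Both groups share the cell line and the label of biological replicates 1 to 3. The labels give neither the media recipes nor the time in them, and do not say whether replicates came from separate differentiations, so p values measure the spread between these samples.

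Complement can start in 3 ways. In the classical and lectin pathways, antibody or sugar recognition activates proteases such as C1R and C1S, which leads to cleavage of C3. In the alternative pathway C3 activates slowly by itself, factor B (CFB) joins it, and factor D (CFD) cuts factor B to make a C3-cleaving enzyme that amplifies its own production. Regulators hold this loop in check: factor I (CFI) cleaves activated C3 and C4 fragments with the help of cofactors, C1 inhibitor (SERPING1) blocks C1R and C1S, CD55 speeds the decay of the C3-cleaving enzymes, and CD59 stops assembly of the membrane pore. The liver makes most circulating complement, while many other cells, fibroblasts among them, make some components locally.

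The libraries held 23232324 to 31035389 gene counts, and levels are given as CPM, counts scaled to a common library size. A count of 0 in a library allows a level of up to 0.0967 to 0.129 CPM, for counting error only. This limit takes 3 counts over the total gene counts, before the scaling described next. The scaling used the trimmed mean of M values (TMM), a correction for differences in RNA composition. The cardiomyocyte marker TNNT2, cardiac troponin T, was at 3334, 3063 and 3159 CPM in RPMI plus B27 and at 4216, 3430 and 3001 CPM in DMEM plus fatty acids. Over all 16107 tested genes, 2848 had an unadjusted p under 0.05 by edgeR, to be set beside such counts in the lists below. Of 12 cardiomyocyte markers 8 had lower fitted values in DMEM plus fatty acids and 0 passed by edgeR, with 4 at an unadjusted p under 0.05 and 3 called by DESeq2. Replicate blocks called 3 as lower, namely MYH7 (blocked log2 fold change -1.32), ACTN2 (-1.05) and CASQ2 (-1.90). MYH6 lay higher at 0.86, passed neither without nor with the block, and was called in 1 of 13 alternative fits. The leukocyte marker PTPRC had 0 counts in 5 libraries and 1 count in DMEM plus fatty acids replicate 3, and 10 macrophage and leukocyte markers together reached 1.07 to 2.87 CPM. Summed markers of smooth muscle (1663 to 2221 CPM against 425.1 to 1271) and of epicardium and mesothelium (2065 to 2680 against 1026 to 1183) were lower in DMEM plus fatty acids. The latter sum was mostly the keratins KRT8 and KRT18, at 1065 and 615.8 CPM in RPMI plus B27 replicate 1. In that library WT1 was at 0.867 CPM and TBX18 at 7.72 CPM. Of 8 tested smooth muscle markers edgeR called LMOD1 as lower (log2 fold change -1.62, adjusted p 0.0292), with 5 at an unadjusted p under 0.05. Replicate blocks called 3 and DESeq2 2. Of 7 tested epicardial and mesothelial markers edgeR called KRT8 as lower (-1.10, adjusted p 0.0402), with 4 at an unadjusted p under 0.05. Replicate blocks and DESeq2 called 4 each. Neither LMOD1 nor KRT8 passed on leaving out any 1 library. The sum of 9 endothelial markers was higher in DMEM plus fatty acids in each same-numbered pair (56.3, 156.7 and 250.1 CPM against 120.0, 407.6 and 471.7). It was mostly KDR, at 27.5, 143.0 and 238.9 CPM against 114.5, 399.6 and 463.2, which passed under the block (log2 fold change 1.49, edgeR adjusted p 0.0245) and not without it. The other 3 tested endothelial markers, TEK (-2.13), EGFL7 (-1.27) and TIE1 (-0.97), had lower fitted values. Of the 4 tested, edgeR without the block called 0, with 2 at an unadjusted p under 0.05, and DESeq2 called 2. Hepatocyte and fibroblast markers are given after the complement genes. In such bulk samples, fewer cells of a type and less RNA per cell cannot be told apart.

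Complement factor I showed the widest gap of the set. CFI (chromosome 4, 109730982 to 109801999, minus strand, GRCh38.p14) stood at 2.26, 2.21 and 3.13 CPM in RPMI plus B27, replicates 1 to 3. It stood at 0.129, 0.134 and 0.148 CPM in DMEM plus fatty acids. The groups were far apart and the 3 DMEM plus fatty acids libraries were nearly equal, although each rested on few reads: 60, 52 and 84 counts in RPMI plus B27 against 3, 4 and 5. The fitted log2 fold change, which here is always the level in DMEM plus fatty acids relative to that in RPMI plus B27, was -4.16 ± 0.36 (SE), which is 17.9-fold lower. Only 39 of the 16107 tested genes had a lower fitted value. Within replicate numbers the level in RPMI plus B27 was 17.5 times (95% exact counting interval 5.71 to 87.2), 16.5 times (6.09 to 63.0) and 21.1 times (8.71 to 66.8) that in DMEM plus fatty acids. These intervals cover counting error only. Leaving out 1 library at a time gave log2 fold changes of -4.25 to -3.98.

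**Figure D1:**
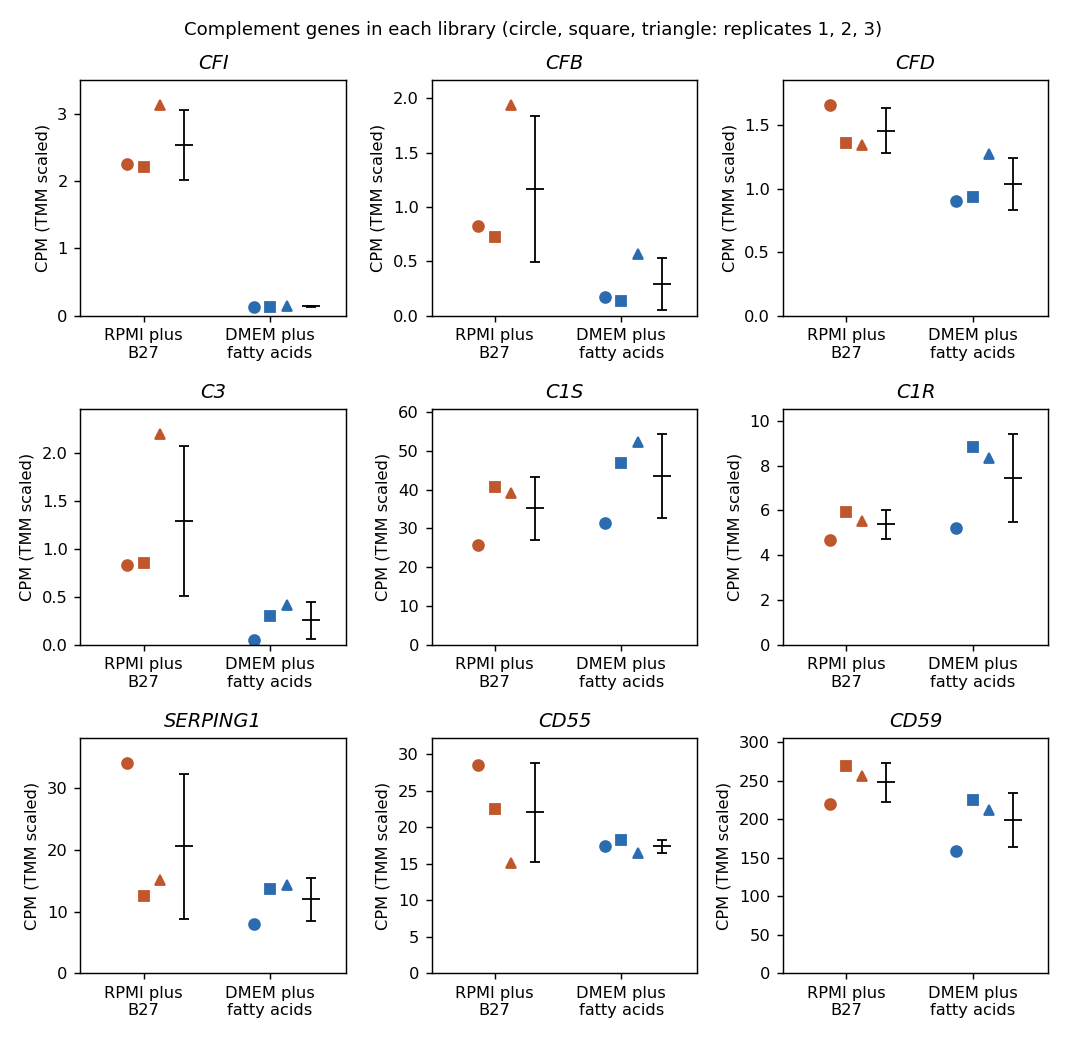
TMM-scaled CPM of the 9 complement genes in each library, 1 panel per gene with its own linear axis from 0. Circles, squares and triangles are replicates 1, 2 and 3, and black marks are mean ± SD (n = 3). CFI, CFB, CFD and C3 were lower in each DMEM plus fatty acids library than in any RPMI plus B27 library, and the groups of the other 5 genes overlapped.

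C3 and factor B, which together form the amplifying enzyme of the alternative pathway, were also low and lay lower in DMEM plus fatty acids. C3 (chromosome 19, 6677704 to 6720650, minus strand) was at 0.829, 0.851 and 2.20 CPM in RPMI plus B27 and at 0.0431, 0.301 and 0.415 CPM in DMEM plus fatty acids. CFB (chromosome 6, 31946095 to 31952084, plus strand) was at 0.829, 0.723 and 1.94 CPM in RPMI plus B27 and at 0.172, 0.134 and 0.563 CPM in DMEM plus fatty acids. For both genes the media did not overlap, and replicate 3 was the highest library of each medium.

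The log2 fold change of C3 was -2.28 ± 0.69 (SE) and that of CFB -1.95 ± 0.65, and neither passed over all genes (edgeR quasi-likelihood test, Benjamini-Hochberg adjusted p 0.159 and 0.185). Once replicate numbers entered the model as blocks, CFB passed (-2.06 ± 0.37, adjusted p 0.0387) and C3 had an adjusted p of 0.0552. The DESeq2 Wald test called C3 (adjusted p 0.0471) and not CFB (0.0978). Over all 12 alternatives the adjusted p ran from 0.0471 to 0.348 for C3 and from 0.0387 to 0.422 for CFB, with the same direction in each. Depth was thin here too, with 22, 20 and 59 counts of C3 against 1, 9 and 14, and 22, 17 and 52 of CFB against 4, 4 and 19. Within replicate numbers C3 was 19.2, 2.83 and 5.30 times as high in RPMI plus B27, with 95% exact counting intervals of 3.11 to 794.3, 1.23 to 7.05 and 2.92 to 10.3. CFB was 4.81, 5.41 and 3.44 times as high (1.63 to 19.2, 1.76 to 22.1 and 2.0 to 6.17), a narrower spread than that of C3.

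The sequence before the start site is shown for CFI and CFB, the gene that chose the set and the other member called with the block, since both have entries in the RefSeq promoter table of GRCh38.p14. Entries were found for 6 of the 9 genes, and those without one are C3, C1S and SERPING1. Each run is the 250 bases before the start on the gene's own strand, at chr4:109802000-109802249 (minus) and chr6:31945845-31946094 (plus). Capitals mark matches, on either strand, to letters associated with inflammatory or basal transcription factors: TTCNNNGAA (STAT), GAAA and GAAA with any 2 bases between them (interferon-response-like), GGGA and TTCC with any 2 bases between them (NF-kB-like), TTGCNNAA (C/EBP-like) and TATAAA (the TATA box).
CFI: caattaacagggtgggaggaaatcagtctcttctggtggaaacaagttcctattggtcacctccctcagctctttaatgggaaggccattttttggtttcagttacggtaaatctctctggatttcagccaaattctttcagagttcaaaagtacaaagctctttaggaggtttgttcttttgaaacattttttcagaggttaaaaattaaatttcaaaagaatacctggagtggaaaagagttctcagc
CFB: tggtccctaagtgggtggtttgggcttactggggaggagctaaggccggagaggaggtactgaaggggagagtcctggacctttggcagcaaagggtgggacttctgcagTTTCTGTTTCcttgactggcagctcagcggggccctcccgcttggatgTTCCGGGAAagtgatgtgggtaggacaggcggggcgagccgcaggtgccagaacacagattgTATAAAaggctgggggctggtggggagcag
The CFB window held 3 of these, with no overlap between them. They were an interferon-response-like match 140 to 131 bases before the start, a STAT match 92 to 84 bases before it and a TATA box 30 to 25 bases before it. The CFI window held none of the 5, nor did those of CFD and CD55. STAT and C/EBP-like matches were also present in windows of C1R (2 starts) and CD59 (4 starts), so matches were not limited to CFB. Of the 35116 windows in the table, 3.02% held the interferon-response-like letters, 6.57% the STAT letters, 10.7% the TATA box, 9.05% the C/EBP-like letters and 1.40% the NF-kB-like letters. A match describes letters only.

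Factor D, the protease that activates factor B, differed less. CFD (chromosome 19, 859664 to 863641, plus strand) was at 1.66, 1.36 and 1.34 CPM in RPMI plus B27 and at 0.904, 0.936 and 1.27 CPM in DMEM plus fatty acids. The groups did not overlap, but the highest library of the lower group came close to the lowest of the other. The log2 fold change was -0.48 ± 0.30 (SE, edgeR adjusted p 0.447), and the counting interval of the ratio within replicate 3 (1.05 times, 0.657 to 1.68) included equal levels.

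The proteases of C1 were the 2 members with higher levels in DMEM plus fatty acids. C1S (chromosome 12, 7060718 to 7071032, plus strand) was at 25.8, 40.7 and 39.2 CPM in RPMI plus B27 and at 31.3, 46.9 and 52.4 CPM in DMEM plus fatty acids. Its neighbour C1R (chromosome 12, 7080219 to 7092445, minus strand) was at 4.67, 5.91 and 5.52 CPM and at 5.21, 8.83 and 8.33 CPM. For both genes replicate 1 was the lowest of its medium, and the media overlapped. The log2 fold changes were 0.30 ± 0.24 for C1S and 0.48 ± 0.26 for C1R (SE, edgeR adjusted p 0.559 and 0.389). Each library was higher in DMEM plus fatty acids than the RPMI plus B27 library with its number, yet with the block neither gene passed (adjusted p 0.167 and 0.236).

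The proportion of C1S to C1R lay in a narrow range. C1S made up 84.7%, 87.3% and 87.7% of the counts of both genes in RPMI plus B27, and 85.7%, 84.1% and 86.3% in DMEM plus fatty acids, with 95% Wilson intervals between 82.0% and 89.4%. The means were 86.6% ± 1.62 and 85.4% ± 1.11 (SD, n = 3 each), a difference of -1.17 percentage points (exact two-sided permutation test, p = 0.4, smallest possible 0.1). The share is one of reads and also reflects transcript length. C1q, the recognition unit that C1R and C1S attach to in blood, was not detected: C1QA, C1QB and C1QC had 0 counts in all 6 libraries.

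SERPING1, which encodes the inhibitor of C1R and C1S, was set apart by a single library. SERPING1 (chromosome 11, 57597685 to 57614848, plus strand) was at 34.1, 12.6 and 15.1 CPM in RPMI plus B27 and at 8.01, 13.6 and 14.4 CPM in DMEM plus fatty acids. Replicate 1 held both the highest and the lowest of the 6 values, while replicates 2 and 3 differed little between media. The log2 fold change was -0.78 ± 0.41 (SE, edgeR adjusted p 0.374), and it was -0.20 without RPMI plus B27 replicate 1.

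The membrane-bound regulators CD59 and CD55 had lower fitted values in DMEM plus fatty acids without passing the test. CD59 (chromosome 11, 33703010 to 33736479, minus strand) was at 219.7, 268.8 and 255.9 CPM in RPMI plus B27 and at 158.9, 225.7 and 212.5 CPM in DMEM plus fatty acids, with a log2 fold change of -0.32 ± 0.16 (SE, edgeR adjusted p 0.363). CD55 (chromosome 1, 207321678 to 207360966, plus strand) was at 28.6, 22.5 and 15.1 CPM and at 17.5, 18.3 and 16.5 CPM, with -0.34 ± 0.23 (adjusted p 0.492). The media overlapped for both. CD55 spread over RPMI plus B27 libraries and was almost constant in DMEM plus fatty acids, and without RPMI plus B27 replicate 1 its log2 fold change was -0.11. CD55 and CD59 are held on the cell surface by a glycosylphosphatidylinositol (GPI) anchor. Of 26 tested genes of GPI anchor synthesis, 0 passed (2 at an unadjusted p under 0.05, and 0 with the block or by DESeq2), and their median log2 fold change was 0.07.

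**Figure D2:**
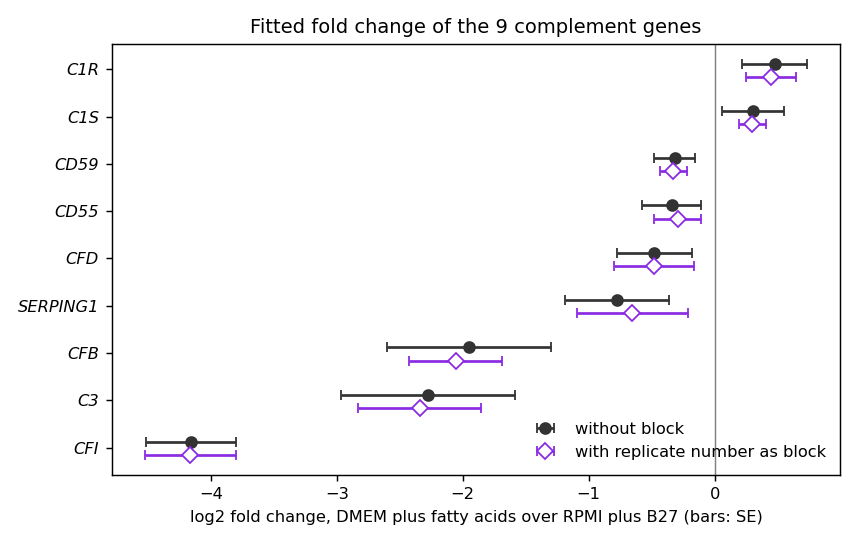
Fitted log2 fold change of the 9 complement genes (below 0 is lower in DMEM plus fatty acids) with bars of 1 SE (6 libraries). Filled circles come from the model without a block, open diamonds from that with replicate blocks. CFI lies at -4.16, C3 and CFB near -2, and the other 6 between -0.78 and 0.48.

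Of the 8 members other than CFI, 0 passed over all genes by edgeR, and 2 had an unadjusted p under 0.05. Over all tested genes 2848 of 16107 had such a p. The blocked model called CFB and DESeq2 called C3. Counting CFI, 1 of 9 passed, and the same threshold called 1.36% of all tested genes in either direction and 1.07% as lower in DMEM plus fatty acids. It called 4.78% with the block and 7.52% by DESeq2. Nothing is read from these counts, since the set was picked for a difference in this contrast. In 4 of the 9 genes the media did not overlap, all lower in DMEM plus fatty acids, as in 12.8% of all tested genes. For either direction that share was 25.6%. The median log2 fold change of the 9 was -0.48, against 0.01 over all tested genes. Scaling by total counts alone moved these medians to -0.36 and 0.12.

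Levels can be set side by side only per length, here as CPM per kilobase of all annotated exons. In RPMI plus B27 CD59 was highest with 24.0 ± 2.46 CPM per kilobase (SD, n = 3), followed by SERPING1 (5.71 ± 3.26), C1S (5.45 ± 1.26) and CD55 (3.74 ± 1.15), which did not differ beyond their spread. CFD (1.19 ± 0.145), C1R (0.912 ± 0.108) and CFI (0.520 ± 0.106) came next, and CFB (0.233 ± 0.135) and C3 (0.155 ± 0.0943) were lowest and within their spread of each other. In DMEM plus fatty acids the top was again CD59 (19.2 ± 3.42), then C1S (6.73 ± 1.69), SERPING1 (3.33 ± 0.963) and CD55 (2.95 ± 0.151). CFI was last there at 0.0281 ± 0.00204, within the spread of C3 (0.0304 ± 0.0229) and of CFB (0.0580 ± 0.0475).

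Markers of hepatocytes and foregut endoderm, cells known to make CFI, CFB and C3, differed between libraries. The 16 markers summed to 17.1, 59.9 and 326.2 CPM in RPMI plus B27 and to 7.97, 23.2 and 54.3 CPM in DMEM plus fatty acids, so replicate 3 was highest in each medium, as it was for C3 and CFB. All 9 tested markers were lower in DMEM plus fatty acids (median log2 fold change -1.53), and 0 passed by edgeR or DESeq2. By edgeR 1 had an unadjusted p under 0.05, and 3 passed once blocked. SERPINA1 (alpha-1 antitrypsin, a liver serpin) was at 0, 12.1 and 196.7 CPM in RPMI plus B27 and at 0, 0.803 and 16.9 CPM in DMEM plus fatty acids. In RPMI plus B27 replicate 1, 8 of the 16 markers had 0 counts, ALB, AFP, SERPINA1 and HNF4A among them. The other 8 were detected, with APOA1 at 15.4 CPM and FOXA3 at 0.904 CPM. In that library CFI was at 2.26 CPM and C3 and CFB were at 0.829 CPM each. Without replicate 3 of both media the log2 fold changes of CFI, C3 and CFB were -4.04, -2.18 and -2.32.

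Fibroblast and stromal markers also moved with the medium. The 14 markers summed to 8485, 5425 and 4445 CPM in RPMI plus B27 and to 778.3, 1992 and 1857 CPM in DMEM plus fatty acids. Of the 13 tested, 12 were lower and 5 passed by edgeR, all of these lower, with a median log2 fold change of -2.72. The block called 9 and DESeq2 10, and 11 had an unadjusted p under 0.05 by edgeR. DCN, among the 5 that passed, had 0, 18 and 20 counts in DMEM plus fatty acids. It met the minimum count for the test only through the RPMI plus B27 group, so its direction is tied to that entry. Replicate 1 held the highest sum in RPMI plus B27 and the lowest in DMEM plus fatty acids, the same libraries that held the highest and lowest SERPING1. COL1A1, a collagen of fibroblasts, was at 2914 CPM in that RPMI plus B27 library and at 211.8 CPM in that DMEM plus fatty acids library. The part of cells with hepatocyte, foregut, fibroblast or stromal markers in the levels of CFI, C3, CFB or SERPING1 was not tested.

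**Figure D3:**
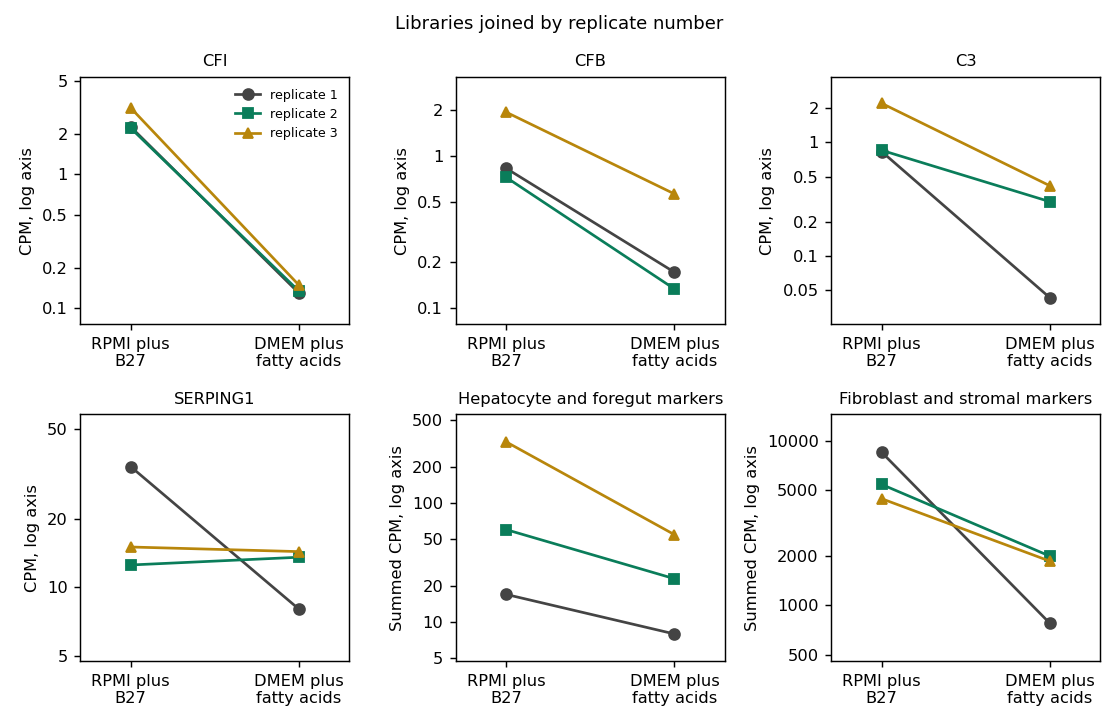
CPM of CFI, CFB, C3 and SERPING1, and summed CPM of 16 hepatocyte and foregut markers and of 14 fibroblast and stromal markers, on log axes. Lines join libraries with the same replicate number. CFI differed alike in the 3 pairs, CFB and C3 were highest in replicate 3 together with the hepatocyte and foregut markers, and SERPING1 differed between media mainly in replicate 1, where the fibroblast markers differed most.

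Beyond the 9 genes, 54 complement genes were listed by function, of which 20 had enough counts to be tested and 7 had 0 counts in every library. By edgeR 0 of the 20 passed, with 7 at an unadjusted p under 0.05, while blocking called 1 and DESeq2 called 1. Their median log2 fold change was -0.15, with 14 lower and 6 higher. The gene called under the block was MASP1, a protease of the lectin pathway, at 481.5, 552.3 and 420.9 CPM in RPMI plus B27 and 240.5, 399.1 and 229.7 CPM in DMEM plus fatty acids (log2 fold change -0.74 ± 0.24, edgeR adjusted p 0.173, blocked 0.0408). The gene called by DESeq2 was SUSD4, a membrane regulator, at 5.58, 7.70 and 5.03 CPM against 12.1, 10.3 and 11.5 CPM (0.89 ± 0.22, edgeR adjusted p 0.104). For both genes the media did not overlap.

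Among the classical and lectin components 7 of 15 were tested, and 6 of these had lower fitted values in DMEM plus fatty acids. The scavenger-type lectin COLEC12 had a log2 fold change of -0.88 ± 0.34 (edgeR adjusted p 0.242), the soluble lectin COLEC11 -0.81 ± 0.39 (0.332) and C2 -0.44 ± 0.51 (0.696). C4A and C4B, near-identical copies whose counts are uncertain, were at 0.766 to 2.03 CPM and 0.224 to 1.32 CPM in RPMI plus B27, and at 0.903 to 1.42 CPM and 0.172 to 1.27 CPM in DMEM plus fatty acids. Of the 7 terminal components 4 were tested. C7, a subunit of the membrane pore, reached 385.1, 392.2 and 174.1 CPM in RPMI plus B27 and 305.6, 382.9 and 161.6 CPM in DMEM plus fatty acids, with replicate 3 the lowest of each medium. C8G was at 0.377, 0.638 and 0.410 CPM in RPMI plus B27 and at 1.16, 0.736 and 0.860 CPM in DMEM plus fatty acids. Its counts were 10, 15 and 11 against 27, 22 and 29. The media did not overlap, and its log2 fold change of 0.95 ± 0.37 did not pass (edgeR adjusted p 0.249). C8A, C8B and C9, which complete the pore, had 2 counts or fewer in any library. CFP (properdin, which stabilises the alternative pathway enzyme) had 2 to 7 counts per library.

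Among regulators outside the 9, CD46, a membrane cofactor of factor I, was at 120.2, 131.6 and 114.1 CPM in RPMI plus B27 and at 172.1, 155.2 and 147.2 CPM in DMEM plus fatty acids. Its media did not overlap, with a log2 fold change of 0.37 ± 0.12 that did not pass (edgeR adjusted p 0.166). VTN (vitronectin, an inhibitor of pore assembly) was at 1.92, 3.53 and 12.2 CPM in RPMI plus B27 and at 1.29, 1.61 and 2.79 CPM in DMEM plus fatty acids, with replicate 3 highest in each. Of 12 complement receptors 3 were tested and 0 passed by edgeR (0 at an unadjusted p under 0.05, and 0 with the block or by DESeq2).

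Interferon and inflammatory signals are known to induce C3 and CFB in many cells. Of 16 tested interferon response genes 0 passed by edgeR, with 4 at an unadjusted p under 0.05 and 2 called by DESeq2, and the block called 2 in opposite directions. STAT2, an interferon signal transducer, was at 50.8, 47.6 and 48.4 CPM against 69.4, 71.2 and 74.5 CPM (log2 fold change 0.55 ± 0.10, edgeR adjusted p 0.0540, blocked 0.0384). GBP1, an interferon-induced GTPase, was at 3.77, 3.49 and 4.51 CPM against 0.431, 0.669 and 1.48 CPM (-2.16 ± 0.46, edgeR adjusted p 0.0754, blocked 0.0293). Of 18 tested acute phase, NF-kB and IL-6 response genes, 14 had lower fitted values and 1 passed. This was CCL2, a monocyte-attracting chemokine, at 4.33, 3.83 and 3.10 CPM against 0.388, 0.502 and 0.207 CPM (-3.36 ± 0.39, edgeR adjusted p 0.0256). CCL2, with 9, 15 and 7 counts in DMEM plus fatty acids, met the minimum count for the test only through the RPMI plus B27 group. Blocking called 3 of the list, all lower, DESeq2 called 2, and 3 had an unadjusted p under 0.05 by edgeR. FGB, called with the block, is also counted among the hepatocyte and foregut markers. Leaving out 1 library raised the adjusted p of CCL2 to as much as 0.0958 (without RPMI plus B27 replicate 2), and it stayed under 0.05 only without RPMI plus B27 replicate 3.

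Some proteases of coagulation and fibrinolysis are relatives of the complement proteases. The list of coagulation and fibrinolysis genes also held serpins and genes of neither kind, THBD among them. Of 18 tested, 16 had lower fitted values and 2 passed, both lower in DMEM plus fatty acids, while blocking called 5 and DESeq2 7. By edgeR 8 had an unadjusted p under 0.05. SERPINA1, called with the block, is also counted among the hepatocyte and foregut markers. Without the block the 2 were THBD (thrombomodulin, an anticoagulant receptor), at 10.3 ± 4.80 CPM against 1.28 ± 0.524 CPM (SD, n = 3 each), and SERPINE2 (protease nexin), at 28.0 ± 6.44 CPM against 11.6 ± 0.903 CPM. Their log2 fold changes were -3.0 ± 0.47 and -1.27 ± 0.20 (edgeR adjusted p 0.0402 and 0.0405). Both passed without RPMI plus B27 replicate 3 and failed on dropping any other single library, with adjusted p of up to 0.116 for THBD and 0.132 for SERPINE2. Scaling by total counts alone gave SERPINE2 an edgeR adjusted p of 0.0527.

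**Figure D4:**
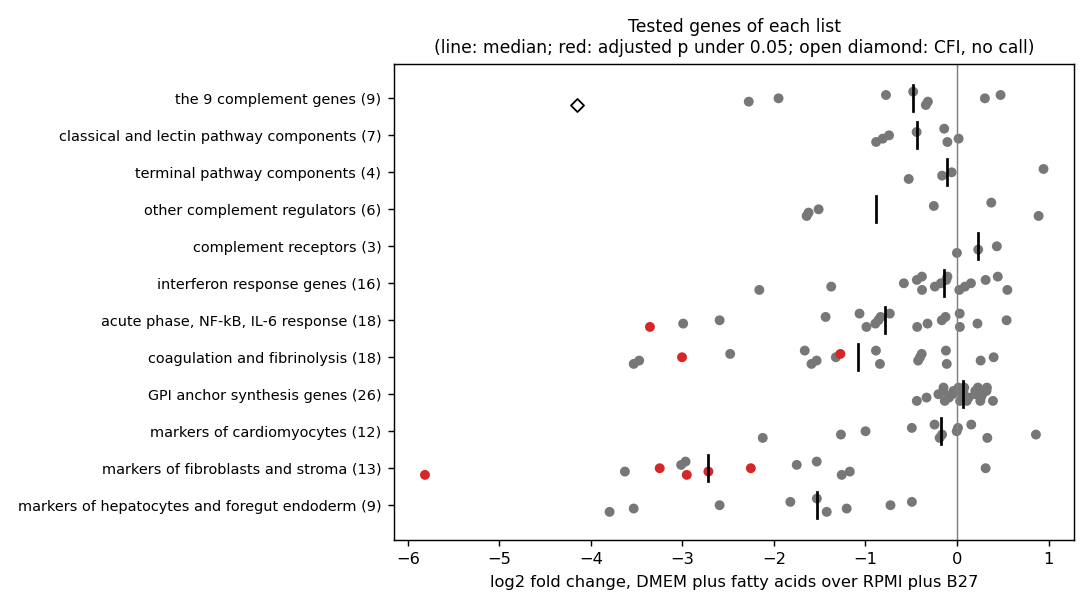
Fitted log2 fold change (below 0 is lower in DMEM plus fatty acids) of the tested genes of 12 lists, with the number tested in parentheses. Each point is a gene, black lines are medians, red points had an edgeR adjusted p under 0.05, and the open diamond is CFI, which chose the set and is shown without a call. The complement lists straddle 0 and hold no red point, GPI anchor synthesis sits tightly around 0, and fibroblast markers lie farthest to the left.

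The genes whose log2 CPM followed that of CFI most closely over the 6 libraries were RIMS1 (Pearson's r 0.993), PDXP (0.992), FSHR (0.992), SYT15 (0.991) and UBL4A (0.991). With 6 libraries in 2 groups such values are common, and 151 of the tested genes had an r above 0.95 with CFI. PDXP went from 64.5, 57.4 and 67.5 CPM in RPMI plus B27 to 35.1, 35.1 and 37.0 CPM in DMEM plus fatty acids, a far smaller gap than that of CFI. The closest to C3 were KLHDC8A (0.994), KLF13 (0.994), MARCHF3 (0.993), TUBA1B (0.989) and APBA2 (0.989), and 68 genes had an r above 0.95 with it. No gene was among the closest 5 of both.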

How the data were processed

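RNA sequencing measured 6 libraries. For each library the authors deposited raw counts by gene symbol, made with STAR and HTSeq on hg38, per the submitters' processing notes. Their versions, the annotation and the strand setting are not given in the sources used here. Summary rows were left out of library sizes (gene rows held 84.4% to 87.2%). Reads without a unique placement had been set aside, per the summary rows, which can lower near-identical copies such as C4A and C4B. RefSeq GRCh38.p14 held 90.6% of the deposited symbols and gave coordinates. Exon lengths came from GENCODE. In RefSeq CD59 overlaps C11orf91 and CD55 overlaps LOC107985251, so their counts can depend on the strand setting.

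Counts were filtered (filterByExpr, minimum count 10, minimum total count 15), scaled by TMM and tested by edgeR 4.0.16 in R 4.3.3 without covariates, with Benjamini-Hochberg adjustment over 16107 genes at 0.05. SEs follow from the F statistic. The method was tested on simulated data. Deviations of libraries with the same replicate number correlated at 0.31, 0.43 and 0.37, other pairs at -0.24 to -0.14. Same-numbered libraries were therefore treated as pairs in the replicate block, the sign-flip test and the ratios within replicate numbers. The main edgeR test did not use this pairing. What a number stands for is not stated in the labels. Alternatives were the replicate block, RLE or total-count scaling, no or a stricter filter, DESeq2 1.42.0 and leaving out each library. Leaving out replicate 3 of both media was added after seeing the data. No 2 libraries agreed within sampling noise.

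The members and gene lists were chosen with earlier results of these data known. Named genes are the members, list genes called with or without the block or among the 4 smallest p of a list, the 5 most like CFI and C3, and defining markers. CFP, C4A, C4B, C1QA, C1QB, C1QC, C8A, C8B, C9 and APOA1 were named after their values were seen.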

Additional observations from a re-analysis of the deposited data

How the results depend on the processing

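The 9 complement genes kept their direction under every alternative that gave a value, 12 for CFI, C3 and CFB, which drop out when 10 counts are asked of every library, and 13 for the others. Among the 8 other than CFI, 2 calls changed: CFB passed with the replicate block and C3 by DESeq2. Counts over the 9 include CFI, whose difference chose the set, so nothing is read from them. The number of the 9 past the threshold was 1, and 2 with the replicate block and by DESeq2. It was 0 with at least 10 counts in every library, 0 to 1 when leaving out 1 library and 0 without replicate 3 in both media. Over all genes the number was 219, and 770 with the replicate block, 539 without a filter, 119 with at least 10 counts in every library, 1212 by DESeq2, 3 to 131 when leaving out 1 library and 0 without replicate 3 in both media (2848 at an unadjusted p under 0.05 in the full fit). The difference in the C1S share was -1.17 percentage points, the same within replicate pairs (exact sign-flip test, p = 0.5, smallest possible 0.25), and -2.10 to -0.55 when leaving out 1 library. Of 68 other named genes 59 kept their direction in all alternatives. The direction turned for C5 (0.071 with total counts only, -0.63 to 0.30 when leaving out 1 library), LRP1 (0.015 with the replicate block, 0.12 with total counts only, 0.012 without a filter, 0.000713 without replicate 3 in both media, -0.18 to 0.16 when leaving out 1 library) and C4B (-0.018 by DESeq2, -1.33 without replicate 3 in both media, -0.92 to 1.05 when leaving out 1 library), as log2 fold changes. When leaving out 1 library it also turned for C2 (-0.82 to 0.0047), C4A (-0.38 to 0.45), C6 (-0.90 to 0.15), C7 (-0.45 to 0.12), CALR (-0.16 to 0.74) and LYZ (-0.95 to 1.07). The cause of these changes was not tested. Depth limits CFI, C3 and CFB, with 1 to 19 counts per library in DMEM plus fatty acids.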
